A study of Mus musculus with 12 samples.

Results

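The genes described here are 10 mouse genes of parent-of-origin expression with roles in growth: H19, Igf2, Meg3, Rian, Mirg, Peg3, Mest, Plagl1, Cdkn1c and Nnat. They were taken by name from the 54532 genes of the count table, all 10 were found, and all 10 passed the low count filter that left 16393 genes for testing. The first 9 were picked as imprinted genes active in muscle repair, and Nnat was chosen by its own measured values, as a gene lower in the knockout libraries of this study. RNA was sequenced from 12 whole lysates of tibialis anterior, a shin muscle rich in fast fibres, collected 5 days after a glycerol injury that leads to fat deposits among the fibres. The 6 knockout libraries have the genotype "FAP no ppary", a conditional deletion of Pparg in FAPs (fibro-adipogenic progenitors), which are mesenchymal cells between the fibres able to turn into adipocytes. The 6 control libraries are labelled Wildtype, and both groups carry the strain label 129svlmJ and the same injury. The labels used here do not give the Cre driver, the age of the mice, or whether each library is a separate animal; p-values therefore cover only the spread among these 12 libraries, which may be technical.

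In imprinted genes one parental allele is silenced by marks set in the germ line, so that most of the RNA comes from the other allele. Many of them act on growth: paternally expressed genes such as Igf2 tend to promote it, and maternally expressed genes such as H19 and Cdkn1c tend to restrain it. Several are abundant in embryonic muscle, decline after birth and return when muscle regenerates. Whole-gene counts do not tell the parental alleles apart, so only total RNA is described.

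Library totals ranged from 15716056 to 29790720 counts, with a mitochondrial share of 2.66% to 10.8%. Markers of mature fast fibres, the tissue on the label, summed to between 18290 and 61530 CPM (counts scaled to library size, with TMM factors) over the libraries. Knockout 6 and controls 2 and 6 stood at 18290, 21700 and 21860 CPM, and every other library at 39520 CPM or more. Those low libraries also had the lowest mitochondrial shares, at 2.66%, 3.06% and 3.92%. Pparg, the deleted gene, fell to 26.4 ± 10.3 CPM in knockouts, against 57.4 ± 8.27 CPM in controls (SD, n = 6 each), a log2 fold change of -1.12 (SE 0.21, edgeR adjusted p = 0.0299), with all 6 knockouts below every control. That call was lost in 8 of 12 fits with 1 library left out. At 27 loci with discrete high and low levels, 5 pairs of libraries (knockouts 1 and 2, 3 and 4, and 5 and 6, and controls 2 and 3, and 4 and 5) agreed in 77.8% to 100% of states, and every other pair in at most 70.4%. Members of a pair may therefore be related, and whether they are was not tested.

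Nnat encodes neuronatin, a small membrane proteolipid of the endoplasmic reticulum found in brain and in fat, and is expressed from the paternal allele. It lies on chromosome 2 at 157560078 to 157562522 (plus strand, GRCm38), inside Blcap, which runs on the opposite strand. Its promoter window in RefSeq (GRCm38.p6, 250 bases before to 50 after the start, chr2:157559828-157560127, plus strand) is shown because Nnat was the member that differed most between the groups, with the CpG dinucleotides in capitals.
Nnat promoter: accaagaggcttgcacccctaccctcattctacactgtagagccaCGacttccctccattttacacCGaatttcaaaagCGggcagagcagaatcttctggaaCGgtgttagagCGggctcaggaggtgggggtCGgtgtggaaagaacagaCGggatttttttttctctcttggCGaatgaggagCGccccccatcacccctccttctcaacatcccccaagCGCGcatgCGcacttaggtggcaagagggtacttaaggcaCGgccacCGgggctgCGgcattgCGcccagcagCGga
It holds 17 CpGs, more than 68.4% of 32544 mouse promoter windows of the same length. On either strand it held no match to AGGTCA, the single nuclear receptor site that 16.2% of the windows hold, and so none to its direct repeat with a spacer of 1 base, which Pparg binds with its partner RXR (0.0399%), nor to TTGCGCAA, a C/EBP palindrome (0.184%). These searches describe letters in this window only.

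Nnat stood at 1.58, 2.74 and 4.95 CPM (lowest, median and highest) in knockouts, against 6.497, 9.99 and 12.99 CPM in controls. All 6 knockouts were below the lowest control, as in 1.27% of all tested genes, and the highest of them were replicates 1 and 2. The means were 3.09 ± 1.53 CPM in knockouts and 10.03 ± 2.26 CPM in controls (SD, n = 6 each), so knockouts held 30.8% of the control level, a log2 fold change of -1.69 (SE 0.29). These values chose the gene and are a description. Raw counts were between 29 and 115 in knockouts and between 133 and 282 in controls, which makes Nnat the member with the fewest reads.

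Blcap, a small protein-coding gene that hosts Nnat, was read beside it because it is not known whether the counting separated the strands. It stood at 36.7, 39.9 and 47.0 CPM (lowest, median and highest) in knockouts and 38.3, 48.4 and 52.0 CPM in controls, with a log2 fold change of -0.23 (SE 0.08, edgeR adjusted p = 0.286). Only 1 knockout lay below all controls. The 95% interval of Blcap was -0.41 to -0.06 (edgeR unadjusted p = 0.0124). Nnat was chosen for its fall, so its separation is no measure for Blcap. No exonic base of Nnat is also exonic in Blcap in the GENCODE M21 annotation (0 of 1829).

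Nnat was low in the libraries in which markers of fat cells were low. The 15 adipocyte markers, a list that does not hold Nnat, summed to between 443.5 and 1908 CPM in knockouts, against between 2690 and 4672 CPM in controls, with all 6 knockouts below every control. None of the 15 was at 0 in all libraries, 5 of them fell and 0 rose, and the median log2 fold change was -1.63. Over all tested genes 0.75% fell and 0.0488% rose by the same edgeR test. Taken singly, 11 of the 15 had all 6 knockouts below every control, against 1.27% of all tested genes. Per 1000 CPM of summed adipocyte markers Nnat stood at 2.78 ± 0.54 CPM in knockouts and 2.89 ± 0.82 CPM in controls (SD, n = 6 each), with ranges of 2.03 to 3.57 in knockouts and 2.00 to 4.36 in controls that overlapped almost wholly. This ratio contains the values that chose Nnat and is a description. The marker sum is itself RNA that fell in knockouts, and is not a count of fat cells. In whole muscle, fewer fat cells and less Nnat RNA per fat cell cannot be told apart.

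Within the knockouts, Nnat was highest in replicates 1 and 2, whose adipocyte scores (the mean log2 CPM of the markers) were also highest at 5.06 and 4.86, and lowest in replicates 5 and 6, at 2.21 and 3.14. The correlation was r = 0.90 (n = 6, exact permutation p = 0.0181, adjusted p = 0.0407 over 18 relations) and rho = 0.94 (exact permutation p = 0.0167, adjusted p = 0.0751), with r = 0.87 without the 2 libraries of most extreme Nnat. Across the controls it was r = 0.16 (n = 6, exact permutation p = 0.765, adjusted p = 0.839) and rho = 0.31 (exact permutation p = 0.564, adjusted p = 0.677), with r = -0.38 without the 2 extreme libraries. The difference between the groups' correlations was not tested. The 18 relations cover 9 pairs in each group and treat the libraries as separate, although knockouts may form related pairs. Nnat stood at 4.95 and 4.94 CPM in knockouts 1 and 2, and at 3.07 and 2.40 CPM in knockouts 3 and 4. In knockouts 5 and 6 it stood at 1.58 and 1.62 CPM. Libraries of each possible pair were thus closest to each other in Nnat. If they are related, the p-values in knockouts rest on fewer separate units than 6.

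With each group centred on its own mean, the protein-coding genes whose pattern over the 12 libraries was most like that of Nnat, among 12527 compared, were G0s2 (r = 0.93), Gadd45g (0.91), Adcy5 (0.91), Kctd2 (0.90) and Slc1a5 (0.90). G0s2 encodes an inhibitor of the lipase that starts triglyceride breakdown, Adcy5 an adenylyl cyclase and Slc1a5 a glutamine transporter. The log2 fold changes of G0s2 and Adcy5 were -1.33 and -1.35 (edgeR adjusted p = 0.0574 and 0.0671). Those of Slc1a5 and Kctd2 were -0.75 and -0.02 (edgeR adjusted p = 0.0938 and 0.987), and that of Gadd45g had the other sign, at 0.36 (edgeR adjusted p = 0.373). Likeness over libraries is a description, since the genes were ranked by it.

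**Figure D1:**
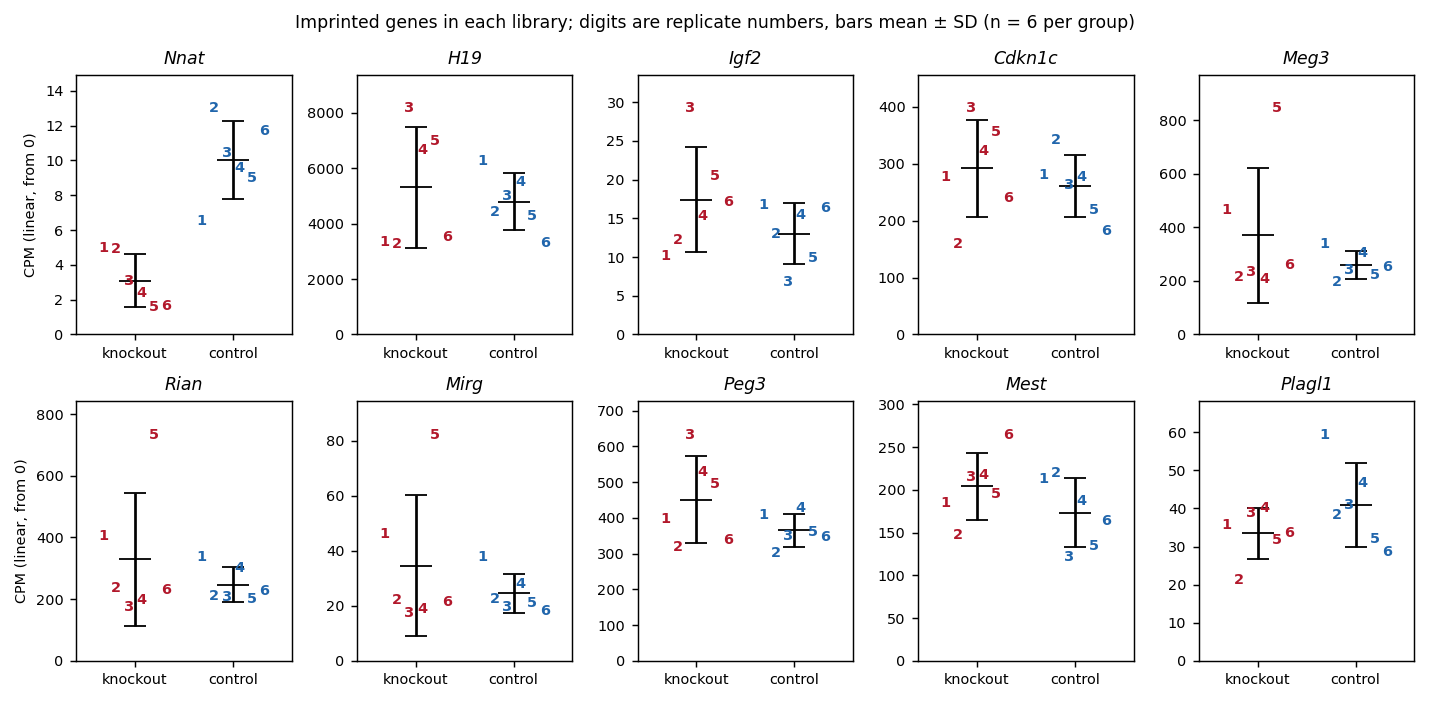
CPM of the 10 imprinted genes (linear axes from 0) in knockout libraries (red, left) and control libraries (blue, right), each digit being a replicate number and the black bars the mean ± SD of 6 libraries. Nnat is the only panel in which the groups do not overlap, with knockouts at 1.58 to 4.95 CPM and controls at 6.497 to 12.99 CPM.

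None of the other 9 genes passed the test between knockout and control. Over all tested genes 131 of 16393 passed at an adjusted p of 0.05 by edgeR, which is 0.799%, with 0.75% lower and 0.0488% higher in knockouts. Of the 9 genes, 0 had an unadjusted p under 0.05 (edgeR), against 9.47% of all tested genes. DESeq2, and limma-voom with sample quality weights, each called 0 of them. Log2 fold changes were positive for 8 of the 9, with a median of 0.31. Over all tested genes 8122 of 16393 were positive, with a median of -0.00. The 8 are not separate observations. Over group-centred libraries r was 0.95 to 0.98 among Meg3, Rian and Mirg, 0.88 for H19 with Peg3 and 0.79 for H19 with Cdkn1c. Without knockout 5 the values of Meg3, Rian and Mirg were 0.10, 0.02 and 0.05. The groups overlapped for all 9 (they were separate in 1.43% of all tested genes). The standard errors, from 0.16 to 0.38, set how large a difference could be missed, and 95% intervals are given with each gene.

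H19 and Igf2 lie in one domain on chromosome 7, where they share enhancers and are expressed from opposite parental alleles. H19 (142575529 to 142578143, minus strand, GRCm38) is a long non-coding RNA transcribed from the maternal allele and the precursor of miR-675. Igf2 (142650766 to 142666816, minus strand) encodes insulin-like growth factor 2, a secreted ligand of the IGF1 and insulin receptors, and its introns hold miR-483. The mature microRNAs within both genes (RefSeq, GRCm38.p6) are shown because they are products of these transcripts that messenger RNA counts cannot measure, with the seed, bases 2 to 8, in capitals.
mmu-miR-675-5p: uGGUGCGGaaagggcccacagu
mmu-miR-675-3p: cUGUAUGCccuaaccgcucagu
mmu-miR-483-5p: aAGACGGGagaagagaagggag
mmu-miR-483-3p: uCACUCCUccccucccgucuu
The 4 seeds differ from each other. The count table lists the Mir675 hairpin at 0 in all libraries, and Mir483 with 127 counts in total.

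H19 was by far the most abundant of the 10 genes, and its log2 CPM had an SD of 0.61 among knockouts and 0.32 among controls, a difference that was not tested. It took 0.32% to 0.828% of all counts in knockouts and 0.362% to 0.609% in controls. In CPM it stood at 3270, 5085 and 8153 (lowest, median and highest) in knockouts, against 3301, 4721 and 6247 in controls. Knockouts 3, 4 and 5 (8153, 6646 and 6962 CPM) lay above every control, whereas knockouts 1, 2 and 6 (3328, 3270 and 3525 CPM) lay at the lower end of the control range or just under it. The log2 fold change was 0.15 (SE 0.25, 95% interval -0.39 to 0.69, edgeR adjusted p = 0.946).

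Igf2 had far fewer reads, at 10.2, 16.2 and 29.2 CPM (lowest, median and highest) in knockouts and 6.78, 14.2 and 16.8 CPM in controls. Knockout 3 was highest, as for H19, and knockouts 3, 5 and 6 lay above every control. The log2 fold change was 0.42 (SE 0.27, 95% interval -0.15 to 1.00, edgeR adjusted p = 0.729). The level of Igf2 is uncertain: 62.8% of its exonic bases (3596 of 5723) also belong to Gm49394, a gene of the same strand that the table lists at 0 in every library, and the sources used here do not say how reads in shared exons were assigned. The value of Igf2 against other genes may therefore be too low, whereas its comparison between libraries rests on the same bases in each.

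H19 and the markers of muscle differentiation were high in the same knockout libraries. The 11 markers of differentiating myocytes had a mean log2 CPM of 9.12, 8.83 and 8.91 in knockouts 3, 4 and 5, and of 8.47, 8.41 and 8.66 in knockouts 1, 2 and 6, against 8.14 to 8.75 in controls. Of these 11 markers 0 passed the test, and 5 had an unadjusted p under 0.05 (edgeR), against 9.47% of all tested genes. The log2 fold changes of all 11 were above 0 with a median of 0.35, and none was at 0 in all libraries. H19 and this score gave r = 0.95 in knockouts (n = 6, exact permutation p = 0.00139, the smallest that 6 libraries can give, adjusted p = 0.0125) and rho = 1.00 (exact permutation p = 0.00278, adjusted p = 0.025), with r = 0.94 without the 2 libraries of most extreme H19. In controls the same relation was r = 0.25 (n = 6, exact permutation p = 0.629, adjusted p = 0.755) and rho = 0.14 (exact permutation p = 0.803, adjusted p = 0.803), with r = -0.20 without the 2 extremes. These p-values, and those of the relations below, treat the libraries as separate. Knockouts 1 and 2, 3 and 4, and 5 and 6 may be related pairs. H19 stood at 3328 and 3270 CPM, 8153 and 6646 CPM, and 6962 and 3525 CPM in them.

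Igf2 and the myocyte score gave r = 0.92 in knockouts (n = 6, exact permutation p = 0.0111, adjusted p = 0.0393) and rho = 0.89 (exact permutation p = 0.0333, adjusted p = 0.0999), with r = 0.83 without the 2 extremes. Their controls gave r = 0.37 (n = 6, exact permutation p = 0.481, adjusted p = 0.618) and rho = 0.43 (exact permutation p = 0.419, adjusted p = 0.539), with r = -0.53 without the 2 extremes. H19 and the score of satellite cell and myoblast markers gave r = 0.86 in both groups. In knockouts that was an exact permutation p of 0.0139 (n = 6, adjusted p = 0.0393), with rho = 0.94 (exact permutation p = 0.0167, adjusted p = 0.0751) and r = 0.83 without the 2 extremes. In controls it was an exact permutation p of 0.0319 (n = 6, adjusted p = 0.0574), with rho = 0.71 (exact permutation p = 0.136, adjusted p = 0.223) and r = -0.22 without the 2 extremes, so there it rested on these. H19 and Igf2 themselves gave r = 0.80 in knockouts (n = 6, exact permutation p = 0.0514, adjusted p = 0.0841, rho = 0.89 with exact permutation p = 0.0333 and adjusted p = 0.0999) and r = 0.01 in controls (n = 6, exact permutation p = 0.993, adjusted p = 0.993, rho = 0.26 with exact permutation p = 0.658 and adjusted p = 0.697). Without the 2 extremes these were 0.62 in knockouts and 0.19 in controls. The part of muscle cell content in the spread of H19 and Igf2 was not tested.

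The 5 receptors and mRNA-binding partners of Igf2 that could be tested were Igf1r, Igf2r, Insr, Igf2bp2 and Igf2bp3. Of these 0 passed the test, and 1 had an unadjusted p under 0.05 (edgeR), against 9.47% of all tested genes. Their median log2 fold change was -0.15. Igf2r, a maternally expressed gene whose product clears IGF2 from the cell surface, stood at 185 ± 13.8 CPM in knockouts and 169 ± 17.3 CPM in controls (SD, n = 6 each), a log2 fold change of 0.13 (edgeR adjusted p = 0.697). The genes most like Igf2 over the 12 group-centred libraries were Galnt5 (r = 0.96), Lrrc47 (0.93), Xrcc6 (0.91), Zfp607a (0.91) and Ube3c (0.90), none of which passed the test between groups (adjusted p from 0.343 to 0.936, edgeR quasi-likelihood).

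**Figure D2:**
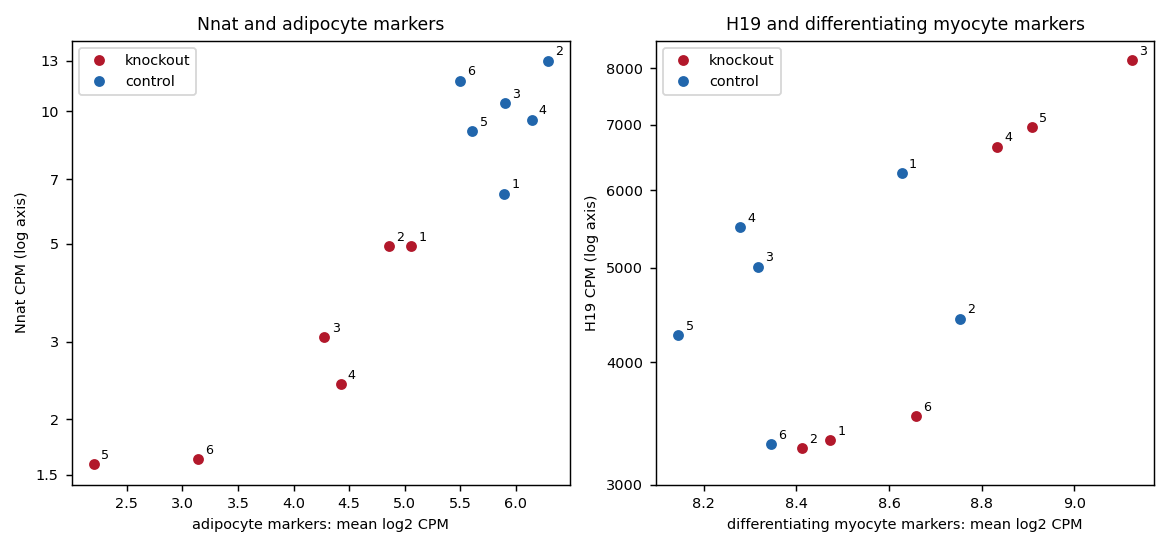
Left, Nnat in CPM (log axis) against the mean log2 CPM of 15 adipocyte markers; right, H19 in CPM (log axis) against the mean log2 CPM of 11 markers of differentiating myocytes. Points are libraries, red for knockout and blue for control, with replicate numbers; within knockouts r was 0.90 for Nnat and 0.95 for H19, and within controls 0.16 and 0.25.

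Cdkn1c (chromosome 7, 143458339 to 143461050, minus strand, GRCm38) encodes p57, an inhibitor of cyclin-dependent kinases that takes part in the exit of myoblasts from the cell cycle, and is expressed from the maternal allele. It stood at 160, 300 and 397 CPM (lowest, median and highest) in knockouts, against 183, 270 and 341 CPM in controls. Knockouts 3 and 5 were above every control and knockout 2 was below, and the log2 fold change was 0.16 (SE 0.20, 95% interval -0.27 to 0.59, edgeR adjusted p = 0.922). Plagl1 (chromosome 10, 13060504 to 13131694, plus strand), a zinc finger transcription factor of the paternal allele that activates other imprinted genes in mouse cells, was the only one of the 9 with a negative value. It stood at 21.1, 34.5 and 40.0 CPM in knockouts and 28.7, 39.6 and 59.35 CPM in controls (log2 fold change -0.29, SE 0.18, 95% interval -0.68 to 0.10, edgeR adjusted p = 0.711). The groups overlapped, with knockout 2 lowest and control 1 highest.

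Meg3, Rian and Mirg are long non-coding RNAs that lie one after another on the plus strand of chromosome 12, between 109541001 and 109749460 (GRCm38). They are transcribed from the maternal allele of the Dlk1 domain and hold clusters of small nucleolar RNAs and microRNAs. Of the 41 mature microRNAs of RefSeq within the 10 genes, 26 lie in Mirg, 6 in Rian, 3 in Meg3 and 2 each in H19, Igf2 and Mest. Those of Meg3 are shown, together with the pair within Mirg that was alone among the 41 in sharing a seed, with bases 2 to 8 in capitals.
mmu-miR-770-5p: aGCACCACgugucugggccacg
mmu-miR-770-3p: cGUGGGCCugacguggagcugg
mmu-miR-1906: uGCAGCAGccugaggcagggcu
mmu-miR-453: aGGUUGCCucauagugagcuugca
mmu-miR-496a-5p: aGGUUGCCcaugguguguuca
The first Meg3 promoter window of RefSeq (GRCm38.p6, chr12:109540746-109541045, plus strand) is shown because the 3 RNAs were high in the same libraries, with CpGs in capitals.
Meg3 promoter: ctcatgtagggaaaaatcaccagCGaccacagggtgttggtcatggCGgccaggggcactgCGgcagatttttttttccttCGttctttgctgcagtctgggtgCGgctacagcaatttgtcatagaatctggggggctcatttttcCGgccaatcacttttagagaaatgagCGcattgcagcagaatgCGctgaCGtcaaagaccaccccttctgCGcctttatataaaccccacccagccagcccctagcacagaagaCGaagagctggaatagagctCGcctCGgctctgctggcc
It holds 13 CpGs, more than 61.8% of the windows of the same length, and 1 CCAAT, a motif found on either strand in 37.4% of them. AGGTCA and TTGCGCAA had no match in it. The second Meg3 window (109545148 to 109545447) held 1 AGGTCA, at -141 from the start on the minus strand. An Igf2 window (142666767 to 142667066) also held 1, at -234, against 16.2% of all windows with a match.

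The 3 RNAs of this cluster were highest together in 2 knockout libraries and lay near the controls in the others. Meg3 stood at 845 CPM in knockout 5 and 467 CPM in knockout 1, between 207 and 259 CPM in knockouts 2, 3, 4 and 6, and between 196.5 and 339 CPM in controls. Rian stood at 733 CPM in knockout 5 and 404 CPM in knockout 1, between 175 and 235 CPM in the other 4 knockouts, and between 201 and 336 CPM in controls. Mirg stood at 82.2 CPM in knockout 5 and 46.1 CPM in knockout 1, between 17.35 and 21.9 CPM in the other 4 knockouts, and between 18.2 and 37.6 CPM in controls. For each of the 3, knockouts 1 and 5 were thus above every control, and control 1 was the highest control. Knockouts 1 and 5 belong to different pairs of the libraries that agree in locus states, and their partners, knockouts 2 and 6, stood within the control range.

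Medians of the groups were close: 245.5 CPM in knockouts and 245.3 CPM in controls for Meg3, 232 and 219 CPM for Rian, and 21.6 and 21.8 CPM for Mirg. The log2 fold changes of 0.52 (SE 0.34), 0.41 (SE 0.33) and 0.50 (SE 0.38) for Meg3, Rian and Mirg had 95% intervals from -0.21 to 1.24, -0.30 to 1.12 and -0.33 to 1.32 (edgeR adjusted p = 0.743, 0.826 and 0.815). Without knockout 5 they were 0.10, 0.02 and 0.05, and without knockout 1 they were 0.44, 0.34 and 0.40, so the values rest mostly on knockout 5. The SD of log2 CPM among knockouts was 0.81, 0.79 and 0.89 for the 3 RNAs, above that of 95.7%, 95.2% and 97.0% of tested genes, against 0.29, 0.31 and 0.38 among controls, above that of 65.6%, 69.0% and 77.3%.

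Their proportions changed less than their levels. The ratio of Meg3 to Rian in FPKM, which is per length, was 1.13 ± 0.14 in knockouts and 1.06 ± 0.09 in controls, and that of Meg3 to Mirg 4.49 ± 0.56 in knockouts and 4.38 ± 0.77 in controls (SD, n = 6 each). Rian and Mirg gave r = 1.00 in knockouts (n = 6, exact permutation p = 0.00139, the smallest possible, adjusted p = 0.0125), with rho = 1.00 (exact permutation p = 0.00278, adjusted p = 0.025) and r = 1.00 without the 2 libraries of most extreme Rian. In controls they gave r = 0.90 (n = 6, exact permutation p = 0.0292, adjusted p = 0.0574), with rho = 0.60 (exact permutation p = 0.242, adjusted p = 0.363) and r = -0.61 without the 2 extremes, on which that relation rests. Meg3 and Rian gave r = 0.98 in knockouts (n = 6, exact permutation p = 0.0139, adjusted p = 0.0393, rho = 0.71 with exact permutation p = 0.136 and adjusted p = 0.223), which was 0.18 without the 2 extremes, and r = 0.93 in controls (n = 6, exact permutation p = 0.0111, adjusted p = 0.0393, rho = 0.83 with exact permutation p = 0.0583 and adjusted p = 0.15), which was 0.99 without them. Meg3 and Mirg gave r = 0.98 in knockouts (n = 6, exact permutation p = 0.0153, adjusted p = 0.0393, rho = 0.71 with exact permutation p = 0.136 and adjusted p = 0.223), again 0.18 without the 2 extremes, and r = 0.76 in controls (n = 6, exact permutation p = 0.0819, adjusted p = 0.121, rho = 0.43 with exact permutation p = 0.419 and adjusted p = 0.539), which was 0.77 without them.

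The paternally expressed genes of the same domain were read beside them. Rtl1, a retrotransposon-derived gene, stood at 11.6 CPM in knockout 5 and 10.6 CPM in knockout 1, against at most 4.08 CPM in the other 4 knockouts and 6.45 CPM in controls (log2 fold change 0.36, edgeR adjusted p = 0.878). It thus had the pattern of Meg3, but a maternal RNA runs antisense to Rtl1, and reads of both may be counted for it. Dlk1, a membrane protein that restrains the formation of fat cells, stood at 47.0 and 42.3 CPM in knockouts 5 and 1 and at 14.6 to 43.3 CPM in the other 4, against 19.6 to 85.3 CPM in controls (log2 fold change -0.24, adjusted p = 0.942). Dio3, a deiodinase at the far end of the domain, stood at 2.78 and 1.33 CPM in knockouts 5 and 1, within or below the range of 1.83 to 8.84 CPM in controls (log2 fold change -0.02, adjusted p = 0.999).

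**Figure D3:**
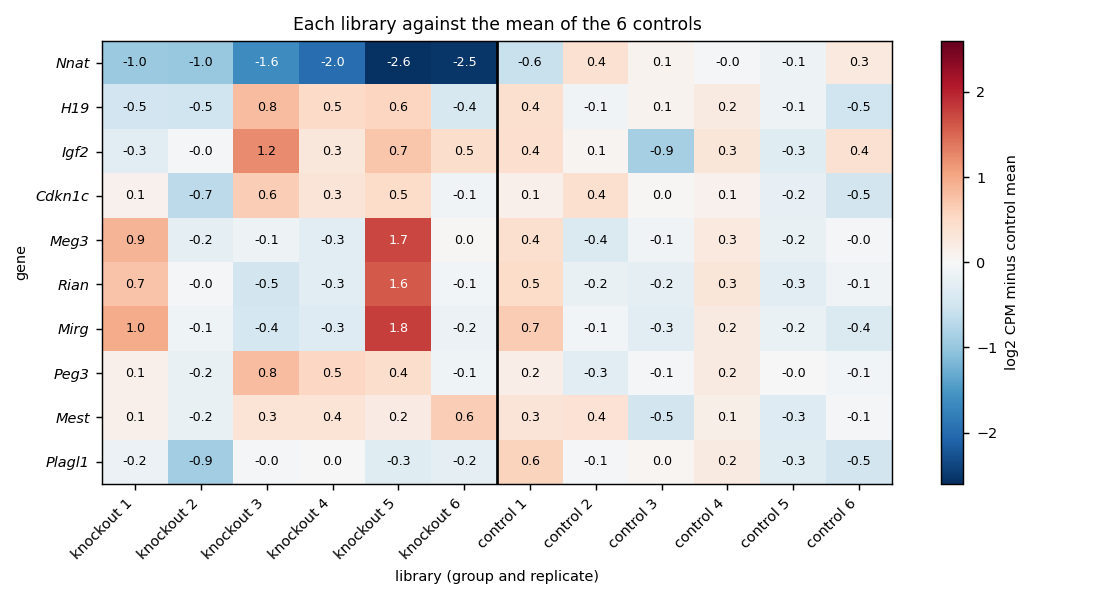
Log2 CPM of the 10 genes in each library minus the mean of the 6 controls, with knockouts left of the line and controls right of it. Meg3, Rian and Mirg are highest in knockouts 1 and 5, H19 and Peg3 in knockouts 3, 4 and 5, and Nnat is below the control mean in all 6 knockouts.

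Peg3 (chromosome 7, 6703892 to 6730431, minus strand, GRCm38) encodes a zinc finger protein of the paternal allele that is present in muscle stem cells. It stood at 318, 445.5 and 633 CPM (lowest, median and highest) in knockouts, against 301, 355 and 426.5 CPM in controls. Knockouts 3, 4 and 5 lay above every control, the same libraries as for H19, and the log2 fold change was 0.31 (SE 0.16, 95% interval -0.04 to 0.65, edgeR adjusted p = 0.606). The satellite cell and myoblast markers also summed highest in 3 knockouts. Their sums were 2292 to 4334 CPM in knockouts and 2240 to 3588 CPM in controls. Of these 10 markers 0 passed the test, and 4 had an unadjusted p under 0.05 (edgeR), against 9.47% of all tested genes. None was at 0 in all libraries, and the part of these markers in the value of Peg3 was not tested. Usp29, the neighbour of Peg3, which shares the promoter region and is also paternally expressed, had a log2 fold change of 0.65 (edgeR adjusted p = 0.226). Its level was low, at 3.52 ± 1.01 CPM in knockouts and 2.25 ± 0.45 CPM in controls (SD, n = 6 each).

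Mest (chromosome 6, 30723547 to 30748465, plus strand, GRCm38), a paternally expressed enzyme-like protein of the endoplasmic reticulum linked to the growth of fat cells in mice, holds miR-335 in an intron. It stood at 147, 205 and 264 CPM (lowest, median and highest) in knockouts and 122, 175 and 220 CPM in controls, with knockout 6 alone above the controls. The log2 fold change was 0.24 (SE 0.16, 95% interval -0.11 to 0.59, edgeR adjusted p = 0.777). This interval spans both signs. Nnat, also paternally expressed and found in fat, was chosen for its negative value, so the genes are not compared. Of the exonic bases of Mest 23.1% overlap Copg2 on the opposite strand, which had a log2 fold change of 0.06 (edgeR adjusted p = 0.925).

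Compared per length, H19 stood far above the other 9 genes. In FPKM as deposited by the authors, H19 averaged 2144 ± 877 in knockouts and 1923 ± 407 in controls (SD, n = 6 each), which placed it 19th of all genes in knockouts and 20th in controls. Cdkn1c (142 and 126 FPKM), Mest (51.4 and 43.3), Peg3 (33.6 and 27.1), Meg3 (20.3 and 14.1) and Rian (17.9 and 13.4) followed in the same order in knockouts and in controls. The levels of Meg3 and Rian overlapped in both groups, and so did those of Peg3 and Mest. In knockouts Meg3 and Rian, at up to 46.2 and 39.8 FPKM, also overlapped Peg3 (from 23.7) and Mest (from 37.1). At the low end the order differed: Mirg, Plagl1, Igf2 and Nnat (4.71, 4.25, 3.02 and 1.68 FPKM) in knockouts, against Nnat, Plagl1, Mirg and Igf2 (5.42, 5.17, 3.31 and 2.25 FPKM) in controls. In knockouts the range of Mirg (2.37 to 11.1), whose mean there is set by knockouts 1 and 5, overlapped those of Plagl1 (2.68 to 5.06), Igf2 (1.77 to 5.07) and Nnat (0.856 to 2.70), so their order by mean is not beyond the spread. In controls the ranges of Nnat (3.49 to 7.01) and Plagl1 (3.64 to 7.46) overlapped. Mirg (2.48 to 5.06) overlapped both of them and Igf2 (1.17 to 2.88), whereas Igf2 lay below Nnat and Plagl1.

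No gene of a list of other imprinted genes passed the test. Of 47 genes, all were found and 41 were tested. By edgeR quasi-likelihood 0 rose, 0 fell (background 0.799%) and 5 had an unadjusted p under 0.05 (background 9.47%). DESeq2 called 1, Ndn, and limma-voom with sample quality weights called 0. The median log2 fold change was 0.04, with 24 positive and 17 negative. Paternally expressed genes, with Nnat and 4 of the 9 other genes among them, had a median of 0.04 over 24 tested genes (14 positive, 10 negative). Maternally expressed genes had a median of 0.16 over 16 (14 positive, 2 negative), and H19 and other members are among these too. Over all tested genes 8122 of 16393 were positive. Genes of 1 domain are not separate observations, and the difference between the lists was not tested. The lists go by known parent of origin, and the allele used in this muscle was not measured. Ndn, which encodes necdin, a growth suppressor of the paternal allele, stood at 42.0 ± 5.77 CPM in knockouts and 56.1 ± 8.59 CPM in controls (SD, n = 6 each), a log2 fold change of -0.42 (SE 0.11, edgeR adjusted p = 0.125), and 4 of 6 knockouts were below every control. Dcn, the matrix proteoglycan decorin and a marker of FAPs, stood at 365 ± 88.5 CPM in knockouts and 510 ± 90.8 CPM in controls (log2 fold change -0.48, SE 0.17, edgeR adjusted p = 0.277). Of the 11 FAP markers, Dcn among them, 2 fell (background 0.75%) and none was at 0 in all libraries. They summed to between 1410 and 2146 CPM in knockouts and between 2074 and 2763 CPM in controls. Without Dcn the other 10 summed to between 1151 and 1671 CPM in knockouts and between 1649 and 2145 CPM in controls, and their part in the values of Ndn and Dcn was not tested.

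**Figure D4:**
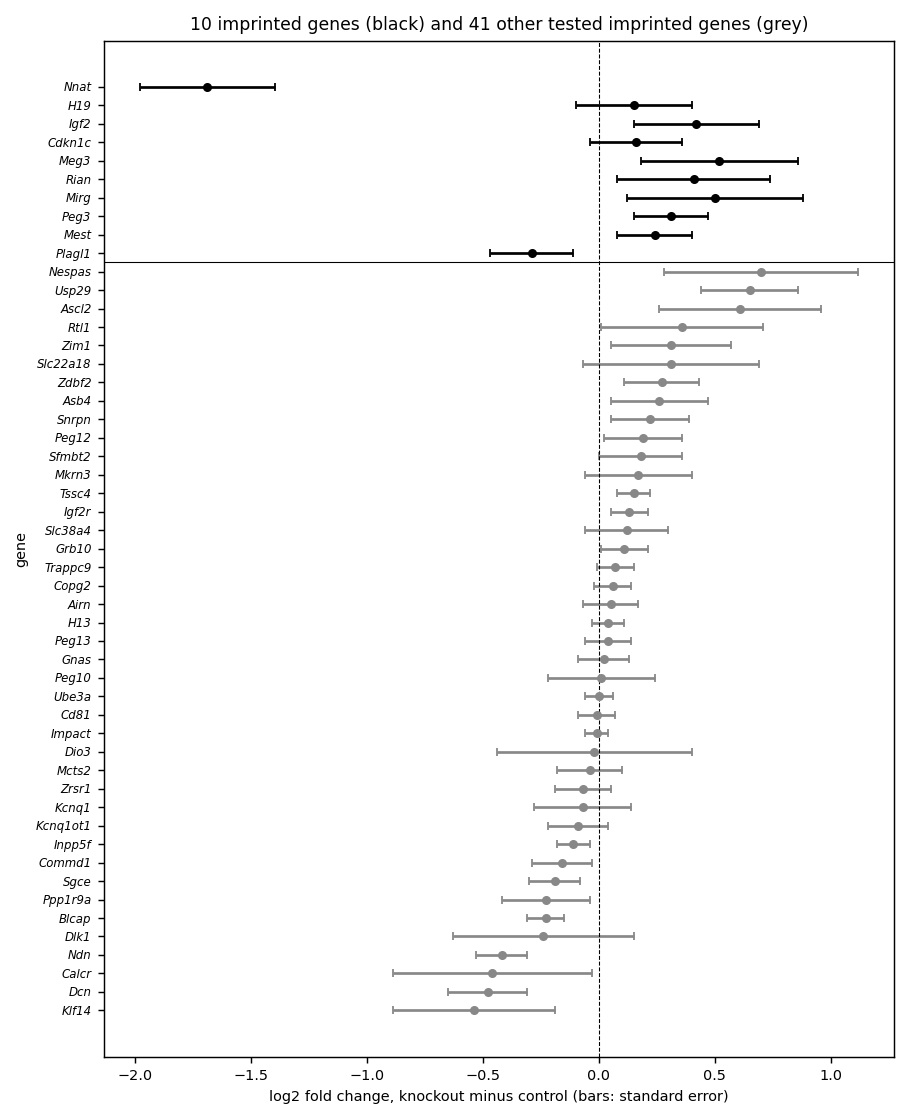
Log2 fold change, knockout minus control, with its standard error (edgeR) for the 10 imprinted genes (black) and 41 other tested imprinted genes (grey). Nnat, chosen for its value, stands at -1.69, and no other gene of the plot lies below -0.54 or above 0.70.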

How the data were processed

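Per the labels' protocols, poly-A RNA was sequenced; both directional and non-directional libraries are described, without saying which was made. The authors deposited whole-number read counts per gene and FPKM values. The submitters' processing notes name HISAT2 2.0.5, fastp, featureCounts and the build GRCm38 (mm10), without strand or multi-overlap settings.

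The count test was that of edgeR 4.0.16 (R 4.3.3): filterByExpr (minimum count 10, minimum total 15), TMM scaling, robust quasi-likelihood F tests over 12 libraries, Benjamini-Hochberg adjustment over 16393 genes with 0.05 as the threshold. Log2 fold changes subtract control from knockout. Standard errors were derived from the test, as the absolute log2 fold change divided by the square root of F. The 95% intervals use these standard errors and the fit's degrees of freedom. Log2 CPM has a prior count of 2. On simulated counts, 59 of 100 genes changed 1.5-fold and 91 of 100 changed 2-fold were recovered, with 5 false calls of 155. Simulated libraries were independent and the changed genes had means above 5 CPM, so related libraries and lower genes were not covered. The changed genes were drawn at random. The share recovered need not hold for genes as spread among knockouts as H19, Meg3, Rian and Mirg. Alternatives used DESeq2 1.42.0, limma 3.58.1 (voom with sample quality weights), other scalings, no filter, a replicate block, FPKM, and each library left out. Counts summed over sets of libraries were added after the data were seen. Over 30 pairs of libraries within groups, chi-square per degree of freedom was 13.1 to 161, so none was counted as a duplicate. Members and lists were chosen with earlier results of these data known. Named genes are the members, Pparg, genes that overlap members, the 4 other imprinted genes with the smallest p (Ndn, Usp29, Dcn and Blcap) and 5 genes each most like Nnat and Igf2 whose mean log2 CPM reached 1; Igf2r, Rtl1, Dlk1, Dio3 and Copg2 were added after their values were seen. All 10 members have the same coordinates in GENCODE M21. Promoter windows of RefSeq were found for 8 of the 10, and only that of Nnat and the first of Meg3 are printed.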

Additional observations from a re-analysis of the deposited data

How the results depend on the processing

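The 9 genes other than Nnat gave 0 calls in all 21 alternatives, and 188 of their 189 log2 fold changes kept their direction; H19 ranged from -0.01, without knockout replicate 3, to 0.26 with 1 library left out. Nnat kept a negative value throughout, from -1.88 to -1.55 with 1 library left out and at -1.29 with FPKM and a pseudocount of 1. The number of genes called over the whole table, read here as background, was less stable. It was 399 (332 lower, 67 higher in knockouts) with DESeq2 and 389 (325 lower, 64 higher) with limma-voom and sample quality weights. With the replicate block it was 236 (221 lower, 15 higher). With counts summed over 4 sets of controls and 3 of knockouts it was 0 (0 lower, 0 higher). With 1 library left out it was 6 to 214 (5 to 190 lower, 1 to 24 higher), and the low counts of 6, 9 and 12 came without knockout replicates 3 and 4 and control replicate 4. The replicate numbers are not shown to pair the libraries (correlations of same-numbered libraries from -0.13 to 0.46, with 3 of 12 libraries closest to their own number). Of the other imprinted genes, DESeq2 called 1 (Ndn, adjusted p = 0.04997), against 0 with 1 library left out each time. Pparg kept its direction and lost its call in 10 of 21 alternatives. Of the 18 relations, 8 passed by Pearson's r and 2 by Spearman's rho; by r it was 7 or 8 without 1 control and 0 without 1 knockout; 5 libraries allow no p below 0.00833. Nnat, at 29 to 282 counts a library, and the uncertain counting of Igf2 limit what these data show.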

Other observations

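Magel2, the neighbour of Ndn in an imprinted domain of chromosome 7 and like it expressed from the paternal allele, did not pass the low count filter and was not tested. It had 7 counts in total over the 6 knockouts, with at most 3 in a library, and 55 counts over the 6 controls, with 3 to 18 in a library. It was noticed after its values were seen.

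Zim1, a maternally expressed zinc finger gene beside Peg3, had its highest values in the knockouts in which Peg3 was also highest: 89.4, 78.2 and 60.4 CPM in knockouts 3, 4 and 5 and 27.9 to 45.3 CPM in knockouts 1, 2 and 6, against 34.7 to 57.25 CPM in controls (log2 fold change 0.31, edgeR adjusted p = 0.846). It was likewise named after its values were seen.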
